A study of Mus musculus with 4 samples.

Results

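Tumor endothelial cells, the cells that line blood and lymph vessels, were taken from mammary tumors profiled by single-cell RNA sequencing. A barcode counted as an endothelial cell when it held at least 1000 UMIs (unique molecular identifiers, each marking 1 captured RNA molecule) with at most 20% of them from mitochondrial genes, when Pecam1, Cdh5, Emcn, Kdr and Egfl7 together reached 5 per 10000 UMIs with at least 3 of the 5 detected, when Ptprc was at 0, and when Epcam, Krt8 and Krt18 together stayed under 10 per 10000. The cells were thus chosen by measured levels of these genes. There were 571 endothelial cells among 23572 barcodes within the depth and mitochondrial limits. Fibroblasts of the same libraries, barcodes with Col1a1, Col1a2 and Col3a1 together at 20 or more per 10000 that met the same limits on Ptprc and keratin genes and were not endothelial cells by the rule, numbered 1475 and served as the stromal cells for comparison.

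All 4 mice carried floxed Frmd8 alleles (Frmd8 fl/fl) and the PyMT oncogene, which forms mammary tumors under the MMTV promoter, and were 17 to 18 weeks old. Replicates 1 and 3 were MMTV-Cre-; Frmd8 fl/fl; PyMT mice (Cre-), and replicates 2 and 4 were MMTV-Cre+; Frmd8 fl/fl; PyMT mice (Cre+). The MMTV promoter drives Cre in luminal epithelium, so endothelial cells are neighbors of the cells in which Frmd8 was deleted and not the intended target. Each mouse gave 1 library of sorted tumor cells, and the sorting gate was not given in the sources used here, so the share of endothelial cells can also reflect the sort. Genotype comparisons rest on 2 mice against 2.

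Replicates 1 to 3 were deposited as called cells from Cell Ranger 6.1.2, with 7020, 7411 and 8017 barcodes for replicates 1, 2 and 3. Replicate 4 came from Cell Ranger 4 with all 2582424 barcodes. That difference cannot be told apart from what sets Cre+ replicate 4 apart from the other mice, and the values without it are given where it decides a result. Total UMIs were 122658098, 126843597, 112729231 and 157662955, and 4922, 5918, 5609 and 7123 barcodes passed the depth and mitochondrial limits. Every set of 4 values is given in the same order, the Cre- mice first (replicates 1 and 3) and then the Cre+ mice (replicates 2 and 4). Between 6 and 16 barcode sequences within the limits were shared by any pair of libraries, and 0 endothelial cells were.

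Endothelial cells differ by vessel. Tip cells lead new sprouts toward VEGF and hold Notch ligand, capillary cells exchange fluid and fatty acids with the tissue, venous cells carry the selectins and receptors by which leukocytes leave the blood, and lymphatic cells depend on the transcription factor Prox1. In tumors, VEGF made by hypoxic cells keeps many vessels sprouting, and mural cells (pericytes and smooth muscle) wrap the endothelial tube and share its basement membrane.

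The endothelial cells numbered 181, 175, 140 and 75. They made up 3.68% (exact binomial 95% interval 3.17 to 4.24), 2.96% (2.54 to 3.42), 2.50% (2.10 to 2.94) and 1.05% (0.829 to 1.32) of the barcodes within the limits. Both Cre+ mice lay below both Cre- mice, and Cre+ replicate 4 was the lowest. Averaged over mice, endothelial cells were 1.77% ± 1.02 of barcodes with Cre and 3.32% ± 0.509 without it (SD, n = 2 each), which differ by -1.54 percentage points, and an exact two-sided permutation test did not place this beyond the spread between mice (p = 0.3333, the smallest that 2 mice against 2 allow). Intervals cover counting error only.

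**Figure D1:**
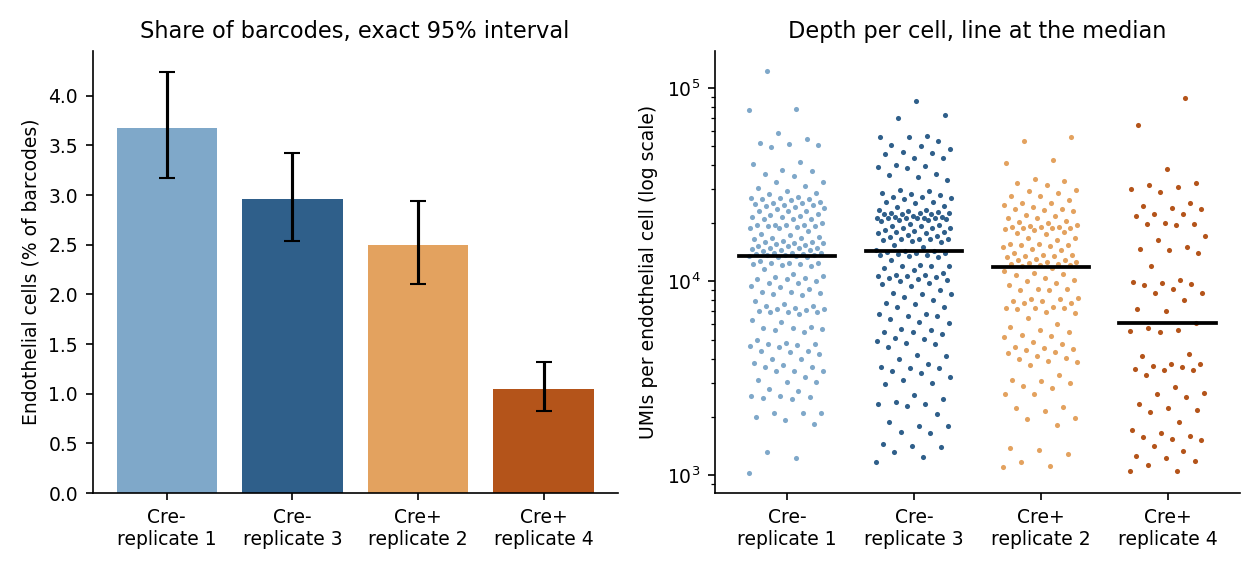
Left, endothelial cells as a percentage of the barcodes within the depth and mitochondrial limits in each library, with exact binomial 95% intervals. Right, UMIs per endothelial cell on a log scale, 1 point per cell and a line at the median. The share falls from 3.68% in Cre- replicate 1 to 1.05% in Cre+ replicate 4, whose cells also have the lowest median depth (6123 UMIs).

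Depth differed as well. The median endothelial cell held 13594, 14321, 11871 and 6123 UMIs and 3821, 4025, 3529.5 and 2339 genes. Cells of Cre+ replicate 4 were the shallowest, and 15 of its 75 held under 2000 UMIs, against 5, 11 and 9 in the other libraries. With replicate 4 limited to barcodes above 10978 UMIs, 26 of its 75 endothelial cells were left and its share was 0.675%. These are named the called barcodes or called cells of replicate 4 below. This is a cut on depth, unlike the calls of replicates 1 to 3, whose deposited barcodes went down to 500 UMIs.

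The genes of the rule describe the cells and were left out of the comparisons with fibroblasts. Between genotypes all 5 were among the genes tested and 0 passed, and nothing is drawn from this because they chose the cells. Cdh5, the cadherin of endothelial junctions, stood at 1466, 1580, 1574 and 1677 CPM (counts per 1000000 UMIs) in the summed endothelial cells. Pecam1, an adhesion molecule of the same junctions, stood at 1160, 1102, 1153 and 1177 CPM, and Kdr, the main signaling receptor for VEGF, at 793, 714, 959 and 655 CPM. Cdh5 and Pecam1 were close in all 4 mice, and Kdr was spread more widely. All 5 genes were detected in 147, 146, 122 and 53 cells. The lowest sums inside the rule were 14.3, 7.32, 5.74 and 17.0 per 10000 UMIs, and just outside it lay 9, 11, 5 and 13 barcodes with only 2 of the genes and 1 barcode of Cre- replicate 3 at 3.89 per 10000. Ptprc, the pan-leukocyte gene, turned away 9, 23, 11 and 6 further barcodes and the keratin genes 13, 19, 4 and 7.

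Endothelial genes outside the rule were measured to check the label. All 24 pan-endothelial genes listed outside the rule were detected in every library, and together they gave 12343, 12748, 13147 and 14277 CPM in endothelial cells. The same list gave 843, 723, 1036 and 925 CPM in fibroblasts, where Cd34, a sialomucin that fibroblasts also make, was the most abundant (462, 424, 733 and 374 CPM). In epithelial barcodes it gave 36.4, 16.0, 35.9 and 44.6 CPM, but these were selected to hold 0 UMIs of the 5 endothelial rule genes, which favors a low value. Lists of B cells, T and NK cells and granulocytes stayed at or under 19.0 CPM in sum in every library. The rule required Ptprc at 0, which favors low values for these lists and for macrophage genes. Macrophage genes gave 70.1, 97.3, 105 and 209 CPM, led by Lyz2 in replicates 1 to 3 and C1qb in replicate 4. Epithelial genes gave 418, 436, 457 and 515 CPM, led by the milk genes Wfdc18 and Csn3, which reached 12227 to 25494 and 3623 to 13580 CPM in epithelial barcodes. That list also holds Epcam, Krt8 and Krt18, which the rule caps.

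Stromal RNA was uneven between libraries. The fibroblast list summed to 67.4, 204, 4211 and 24.6 CPM in the endothelial cells, with Col3a1 the most abundant in replicates 1 to 3. Cre+ replicate 2 was far above the others. It held 7 endothelial cells that also passed the collagen threshold, and Cre- replicate 3 held 6. Without these cells and those with UMIs of 2 or more of the mural genes Rgs5, Pdgfrb, Cspg4 and Notch3 (0 to 5 per library), the fibroblast list gave 40.1, 98.98, 92.6 and 24.6 CPM. The mural list gave 307, 575, 325 and 293 CPM, of which 157, 428, 269 and 293 CPM remained without the mixed cells. Both lists hold genes that mark the mixed cells, so their lower sums are partly set by that filter. Cspg4, a defining pericyte gene, was at 2.03, 3.91, 0 and 0 CPM.

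Frmd8, the floxed gene, was at 30.8, 35.8, 26.8 and 30.2 CPM in the endothelial cells. Both Cre+ values lay below both Cre- values, but the difference did not pass the test (log2 fold change Cre+ over Cre- -0.22 ± 0.24 SE, adjusted p = 1.00 by edgeR's quasi-likelihood test with Benjamini-Hochberg adjustment). With at least 3000 UMIs per cell the groups overlapped, at 30.5, 35.9, 27.3 and 31.6 CPM. They also overlapped among called barcodes of replicate 4, where the level of that library was 34.7 CPM. In epithelial barcodes, the class in which Cre is driven, Frmd8 was at 24.8, 24.3, 5.81 and 10.8 CPM, lower in both Cre+ mice. Without thinning, 37.4%, 35.2%, 9.33% and 12.6% of those barcodes held a UMI of it. Their median depth was 17721, 16887, 11645 and 10456 UMIs, so lower depth can also lower the Cre+ shares. In fibroblasts Frmd8 was at 20.4, 19.96, 16.1 and 19.1 CPM. The counts do not show which exons a transcript holds.

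To ask what sets the endothelial cells apart from the neighboring stroma, counts were summed per library and class and compared with fibroblasts of the same mouse. Of 11406 genes tested, 2760 (24.2%) were higher and 3459 (30.3%) lower in endothelial cells by edgeR's quasi-likelihood test with the mouse as a block (adjusted p under 0.05), and together they were 54.5% of the genes. The counts below are to be read against these shares. A barcode that holds several endothelial genes was bound to hold others, so the direction of the pan-endothelial genes describes the rule as much as the cells. All 24 pan-endothelial genes passed as higher, with a median log2 fold change of 6.83 beside -0.06 over all genes tested.

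Cldn5, a tight-junction protein, was at 388, 682, 484 and 1350 CPM in endothelial cells and at 0, 0, 0.207 and 0.286 CPM in fibroblasts, the largest ratio of the named genes (log2 fold change 11.97 ± 0.46 SE, adjusted p = 1.03e-05, edgeR). The classes did not overlap in any mouse. Gpihbp1, which carries lipoprotein lipase to the capillary lumen, followed at 11.56 ± 0.43 SE (log2 fold change, adjusted p = 9.27e-06, edgeR). Adgrl4, an adhesion receptor of angiogenic endothelium, was higher by 11.16 ± 0.40 SE and Tie1, an orphan receptor of the angiopoietin pathway, by 10.65 ± 0.39 SE on the log2 scale. Fam167b, Myct1, Icam2, Prnd and Depp1 completed the genes with the largest fold, with log2 fold changes between 9.89 and 10.42. Sox17, a transcription factor of arterial endothelium, had 1048 UMIs in endothelial cells and 2 in fibroblasts, a pooled ratio of 2065 (95% counting interval 570 to 17071). These fibroblast levels were close to nothing: Cldn5 had 4 UMIs in all 1475 fibroblasts.

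The most abundant pan-endothelial genes were higher by smaller factors or similar ones. Cd93, a C-type lectin-like receptor of sprouting endothelium, was at 1283, 1172, 1193 and 1445 CPM against 2.22, 2.52, 0.415 and 1.43 CPM in fibroblasts (log2 fold change 9.54 ± 0.48 SE, adjusted p = 2.44e-05, edgeR). Plvap, which forms the diaphragms of fenestrated vessels, was at 1079, 1414, 1496 and 1162 CPM in endothelial cells. Flt1, a VEGF receptor that can act as a decoy, was at 24.1 to 112 CPM in fibroblasts and at 1000 to 1468 CPM in endothelial cells (log2 fold change 4.40 ± 0.42 SE, adjusted p = 2.25e-04, edgeR). Cd34 differed least (log2 fold change 0.80 ± 0.19 SE, adjusted p = 0.0115, edgeR).

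Upstream sequence is shown for Cldn5, the gene with the largest ratio to fibroblasts, and for Esm1 and Apln, tip genes whose levels are followed through the mice below. The 250 bases before the RefSeq start site (GRCm38.p6, 5′ to 3′ on the strand of the gene) are given in lower case, and capitals mark a match to CCGGAAG or CAGGAAG on either strand, motifs of the kind bound by ETS factors such as Erg and Fli1. The windows lie at chr16:18776597-18776846 on the plus strand for Cldn5, chr13:113209409-113209658 on the plus strand for Esm1 and chrX:48034854-48035103 on the minus strand for Apln.
Cldn5: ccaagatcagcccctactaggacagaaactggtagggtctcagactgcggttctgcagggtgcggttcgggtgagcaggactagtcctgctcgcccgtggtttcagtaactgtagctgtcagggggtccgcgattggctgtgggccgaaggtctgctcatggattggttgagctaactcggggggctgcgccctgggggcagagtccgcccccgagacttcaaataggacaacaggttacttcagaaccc
Esm1: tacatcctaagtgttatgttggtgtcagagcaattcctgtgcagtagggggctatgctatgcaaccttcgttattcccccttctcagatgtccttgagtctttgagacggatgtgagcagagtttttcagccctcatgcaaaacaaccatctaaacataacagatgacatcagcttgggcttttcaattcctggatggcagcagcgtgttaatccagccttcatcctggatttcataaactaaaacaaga
Apln: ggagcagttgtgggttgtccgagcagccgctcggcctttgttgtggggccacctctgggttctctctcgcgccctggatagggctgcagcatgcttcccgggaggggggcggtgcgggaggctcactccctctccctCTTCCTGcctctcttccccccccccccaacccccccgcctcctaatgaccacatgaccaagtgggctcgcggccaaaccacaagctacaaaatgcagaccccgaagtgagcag

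Apln held 1 match, and the windows of Cldn5 and Esm1 held 0. Of the 24 pan-endothelial genes, 12 matched the RefSeq promoter table with 15 windows, and 5 of these (33.3%) held a match. Of the tip genes, 9 of 12 matched with 11 windows, 3 of which (27.3%) held a match. Over all 32851 windows of the same length the share was 17.0%. A match is a string of letters and not a bound site.

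The tested VEGF and angiopoietin receptors were all higher in endothelial cells, while the ligands were divided. Of 13 VEGF and angiopoietin genes that passed the filter, 9 were higher and 4 lower in endothelial cells. Nrp1, a VEGF co-receptor, was at 319, 338, 513 and 384 CPM against 120, 89.3, 89.9 and 112 CPM (log2 fold change 1.73 ± 0.18 SE, adjusted p = 3.27e-04, edgeR). The 4 lower genes were the ligands Vegfa, Vegfb, Vegfd and Angpt1, named after their values were seen. Vegfa, the main ligand of Kdr, was at 6.44, 3.26, 3.22 and 22.3 CPM in endothelial cells and at 54.4, 78.8, 48.9 and 73.1 CPM in fibroblasts (log2 fold change -3.41 ± 0.41 SE, adjusted p = 5.95e-04, edgeR).

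Of 11 Notch genes that passed the filter, 8 were higher and 3 lower in endothelial cells. Dll4, the Notch ligand of tip cells, was at 241, 222, 288 and 315 CPM against at most 0.678 CPM in fibroblasts (log2 fold change 9.18 ± 0.29 SE, adjusted p = 6.00e-06, edgeR). Notch1, its receptor on neighboring cells, was at 275, 241, 296 and 242 CPM against 36.9, 19.6, 12.4 and 17.4 CPM (3.54 ± 0.27 SE). Hes1, a Notch target found in many cell types, differed by 0.56 ± 0.16 SE on the log2 scale. The 3 lower genes were Notch2, Jag1 and Heyl, chosen after their values were seen, and Heyl together with Notch3 marks mural cells.

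Of 12 BMP and TGF-beta genes 6 were higher and 3 lower, and 3 did not pass. Id1, a target of BMP signaling, was at 274, 370, 405 and 374 CPM against 16.8, 15.0, 26.7 and 76.8 CPM in fibroblasts (log2 fold change 3.55 ± 0.38 SE, adjusted p = 3.77e-04, edgeR). Eng, the BMP co-receptor, was 3.93 ± 0.20 SE higher. Id3 did not pass, with 427, 704, 671 and 739 CPM in endothelial cells and 430, 451, 414 and 589 CPM in fibroblasts.

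Of 13 basement membrane genes 8 were higher and 3 lower. Col4a1, a chain of collagen IV, was at 5320, 5585, 5257 and 4790 CPM against 1824, 1211, 686 and 1971 CPM in fibroblasts (log2 fold change 1.82 ± 0.26 SE, adjusted p = 1.36e-03, edgeR). Col4a2, its partner chain, was 1.97 ± 0.24 SE higher. Sparc, a collagen-binding matrix protein, was lower in endothelial cells although abundant in both, with 6493, 8419, 8643 and 11463 CPM against 11955 to 12575 CPM (log2 fold change -0.69 ± 0.15 SE, adjusted p = 9.15e-03, edgeR).

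Of 8 flow-response genes 4 were higher and 1 lower. Cav1, which builds caveolae, was at 588, 435, 409 and 533 CPM against 34.4 to 84.3 CPM (3.04 ± 0.21 SE on the log2 scale), while Klf2, a transcription factor induced by laminar flow, did not pass (0.58 ± 0.21 SE, adjusted p = 0.0554, edgeR). Of 10 lipid uptake genes 5 were higher and 4 lower. Of 9 MHC class I genes 4 were higher and 0 lower, among them H2-D1 (0.48 ± 0.14 SE), and of 4 MHC class II genes tested 0 passed in either direction. Of 13 interferon genes 3 were higher and 2 lower, of 9 hypoxia genes tested 3 were higher and 2 lower, and of 15 cell cycle genes 5 were higher and 1 lower. Of 11 leukocyte traffic genes 4 were higher and 3 lower, and Cxcl10, a chemokine induced by interferon, was at 85.0, 91.8, 2.68 and 533 CPM in endothelial cells and did not pass (0.68 ± 0.79 SE).

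Of 12 immediate early and dissociation stress genes 0 were higher and 10 lower than in fibroblasts, with a median log2 fold change of -0.94. Fos was at 1422, 747, 1030 and 932 CPM against 2361, 1321, 1688 and 1931 CPM (log2 fold change -0.9994 ± 0.106 SE, adjusted p = 3.63e-04, edgeR). Jun was lower by 0.61 ± 0.16 SE and Junb by 0.70 ± 0.13 SE on the log2 scale. In both classes Cre- replicate 1 held the highest Fos level. These genes also respond to tissue dissociation, whose part in the difference was not tested.

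On the fibroblast side, Cxcl5, a neutrophil chemokine, had 0 UMIs in endothelial cells and 1749 in fibroblasts, so it was at least 148-fold lower in endothelial cells (against 3 UMIs over all 4 endothelial sums). Crabp1, H19 and Inhba had 2 UMIs each in endothelial cells, and Crabp1, which binds retinoic acid, was 930-fold lower by pooled counts (95% counting interval 257 to 7678). Dpt, Mfap5, Dcn, C3, Cyp1b1 and Sfrp2 completed the list. Dcn, a collagen-binding proteoglycan, was at 3.05, 36.8, 636 and 4.47 CPM in endothelial cells and at 4595 to 6635 CPM in fibroblasts, and the high value again belonged to Cre+ replicate 2 with its mixed cells.

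Of the 9 mural genes, 8 were lower in endothelial cells than in gated fibroblasts, and 39.2%, 23.5%, 23.7% and 41.9% of those fibroblasts held UMIs of 2 or more of the mural genes named above, so the comparison class holds mural-like cells. Abcc9, a potassium channel subunit of pericytes, did not pass (120, 132, 180 and 181 CPM against 218, 77.8, 68.1 and 169 CPM). With fibroblasts that held 2 or more mural genes left out, an alternative added after the data were seen, 5969 genes passed in place of 6219.

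**Figure D2:**
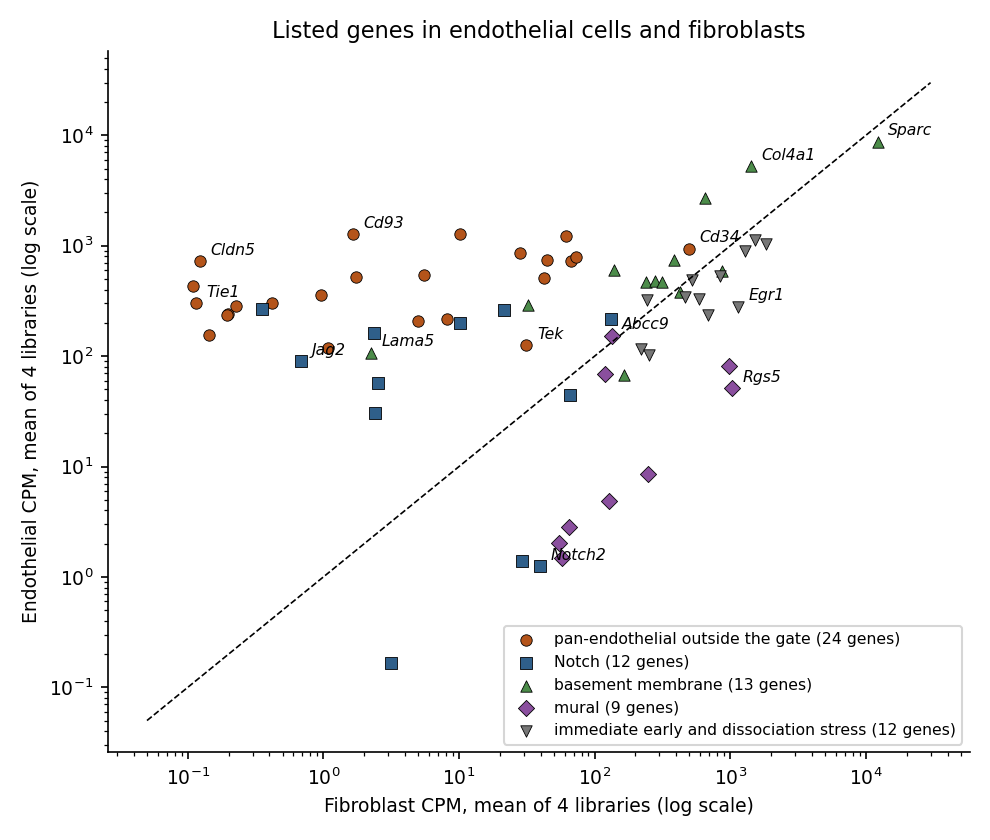
Mean CPM over the 4 libraries in endothelial cells (vertical axis) and in fibroblasts (horizontal axis), both on log scales, for 5 gene lists, with a dashed line where the levels are equal. The 24 pan-endothelial genes lie above the line, 8 of 9 mural genes passed the test below it, and basement membrane genes sit on both sides, with Col4a1 above and Sparc below.

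Vessel marker use was described by 5 lists. A cell used a list when UMIs of at least 2 of its genes were present after thinning to 2000 UMIs, which left 176, 164, 131 and 60 endothelial cells. The same share was taken in fibroblasts and in epithelial barcodes with 0 UMIs of the endothelial rule genes, whose median depth was 18477, 17560, 25277 and 20031 UMIs (fibroblasts) and 17721, 16887, 11645 and 10456 UMIs (epithelial) before thinning. Capillary genes were used by 84.1%, 90.2%, 84.7% and 98.3% of endothelial cells. Tip genes were used by 60.2%, 77.4%, 76.3% and 91.7%. Venous genes were used by 70.5%, 59.1%, 56.5% and 18.3%. Arterial genes were used by 21.0%, 26.2%, 26.0% and 30%, and lymphatic genes by 1.70%, 1.83%, 1.53% and 3.33%. Cre+ replicate 4 had the highest capillary and tip use and the lowest venous use.

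Shares in the other classes were low for 4 of the lists, but selection favors this. Fibroblasts left out endothelial cells by the rule, and the epithelial barcodes held 0 UMIs of its endothelial genes. Fibroblasts used capillary genes in 0.408% to 5.19% of cells, tip genes in 1.84% to 7.25%, venous genes in 5.51% to 9.09% and lymphatic genes in 0% to 0.362%, while epithelial barcodes stayed at or under 8.63% for every list. Arterial use in fibroblasts was 9.42%, 9.84%, 12.9% and 18.8%, and the list holds Cxcl12 and Fbln5, both higher in fibroblasts by test. Without thinning, arterial use was 66.3%, 73.1%, 68.6% and 72.0% in endothelial cells and 69.4%, 54.8%, 70.1% and 64.4% in fibroblasts, so the unthinned share did not separate the classes.

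**Figure D3:**
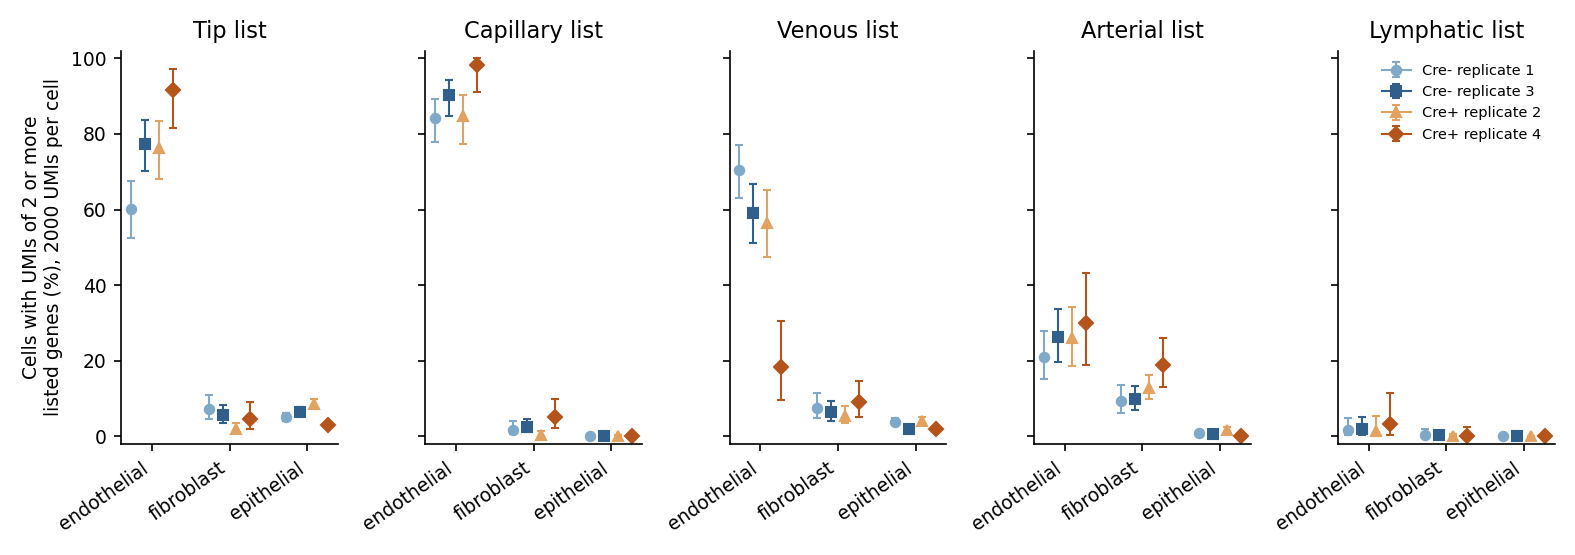
Share of cells with UMIs of at least 2 genes of each vessel list after thinning to 2000 UMIs per cell, in endothelial cells, fibroblasts and epithelial barcodes of each library, with exact binomial 95% intervals. Capillary and tip use reach 98.3% and 91.7% in the endothelial cells of Cre+ replicate 4, where venous use is 18.3%, and lymphatic use stays at or under 3.33%.

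The lists overlapped within cells. Of the thinned endothelial cells, 86.9%, 91.5%, 86.3% and 95% used 2 or more lists and 4, 2, 4 and 0 cells used none. Among capillary-list users, 63.5%, 78.4%, 82.9% and 91.5% also used tip genes. Among venous-list users, 54.0%, 73.2%, 73.0% and 90.9% (10 of 11 cells in Cre+ replicate 4) used tip genes. Most cells thus held listed genes of several vessel types. Before thinning, Aqp1 was found in 171, 164, 126 and 64 cells and the tip gene Trp53i11 in 132, 136, 108 and 58. Others were rarer, such as Esm1 in 40, 70, 57 and 49 cells. With genes this widespread in the lists, their overlap does not show that a cell has mixed vessel identity.

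Genotype did not separate the use of any list beyond the spread between mice. Tip use was 84.0% ± 10.8 with Cre and 68.8% ± 12.2 without it (SD, n = 2 each) (exact two-sided permutation test p = 0.667, adjusted over 5 lists 0.833), and without thinning it was 94.5% against 93.3% (exact permutation p = 1). Thinned to 1000 UMIs it was 67.2% against 43.4% (exact permutation p = 0.3333). Venous use was 37.4% ± 27.0 in Cre+ and 64.8% ± 8.00 in Cre- mice (exact permutation p = 0.3333, adjusted 0.833), where the 2 groups did not overlap and most of the difference lay in Cre+ replicate 4. Capillary use was 91.5% ± 9.62 against 87.2% ± 4.35 and arterial use 28.0% ± 2.86 against 23.6% ± 3.67 (exact permutation p = 0.667 each, adjusted 0.833). Lymphatic use was 2.43% ± 1.28 against 1.77% ± 0.0882 (exact permutation p = 1). No list could pass in this design.

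Across all genes, edgeR's quasi-likelihood test called 0 of 10274 genes (0% of those tested) between Cre+ and Cre- endothelial cells at an adjusted p under 0.05, and 387 (3.77%) had an unadjusted p under 0.05. DESeq2 called 7 genes. Leaving out Cre+ replicate 2 gave 470 edgeR calls and leaving out Cre+ replicate 4 gave 284, where the lone Cre+ library is assumed to vary like the Cre- pair. On simulated counts of the same size, the edgeR test found 31% of genes changed by a log2 fold change of 1. It found 99% of those changed by 2. The simulation changed only genes above 50 CPM and used a fixed spread between libraries that was not estimated from these mice. These shares therefore do not show what the test could find here. Fitted changes above 2 did not pass edgeR for Fn1 (2.49) or Ccn2 (2.11). For orientation, 14.8% of all genes tested had both Cre+ values above both Cre- values and 17.6% had both below. The levels below are descriptions read against these shares.

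Cre+ replicate 4 held the highest level of each of the 12 tip genes, and 7 of the 12 had overlapping groups. Among called barcodes of replicate 4, its Dll4 level was 258 CPM, below the 288 CPM of Cre+ replicate 2. Both Cre+ values lay above both Cre- values for 5 of 12 genes (41.7% beside 14.8%). All 12 fitted log2 fold changes were positive beside 5173 of 10274 genes, and the median was 0.74 beside 0.00 over all genes. In Cre+ replicate 2, Pgf (16.1 CPM) lay below both Cre- mice (22.7 and 37.8 CPM). Its levels of Angpt2, Kcne3, Nid2, Lxn, Trp53i11 and Unc5b lay between those of the Cre- mice. For these genes and Pgf, only Cre+ replicate 4 lay above both Cre- mice. None of the 12 passed the adjusted threshold with all 4 mice. Without the mixed cells, Trp53i11 and Unc5b were apart as well, which gives 7 of 12 genes beside 15.6% of all genes. Under the study's limits on cells 11 of 12 were apart beside 14.9%, all but Pgf. Those limits, as applied here, kept barcodes with 200 to 5000 genes and up to 30000 UMIs. The paper words these ranges as cells to exclude, and they were read here as cells to keep. The summed tip list was at 1874, 2842, 3156 and 7263 CPM, so the level in Cre+ replicate 2 was near that of Cre- replicate 3.

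Esm1, a proteoglycan secreted by tip cells, was at 150, 350, 581 and 1679 CPM. The 4 mice were spread widely within each genotype (log2 fold change Cre+ over Cre- 2.21 ± 0.58 SE, adjusted p = 1.00, edgeR). With Cre+ replicate 4 left out the Esm1 fold change was 1.19 (adjusted p = 1.57e-04, edgeR) and with Cre+ replicate 2 left out 2.80 (adjusted p = 1.32e-31), each with a lone Cre+ library assumed to vary like the Cre- pair. After thinning, 11.9%, 26.8%, 30.5% and 63.3% of endothelial cells held an Esm1 UMI, against at most 0.532% of fibroblasts and 0.268% of epithelial barcodes. Apln, the ligand of the apelin receptor, was at 136, 256, 368 and 859 CPM (1.68 ± 0.47 SE, and 0.89 without Cre+ replicate 4 and 2.19 without Cre+ replicate 2, both of which passed), and Cxcr4, the receptor for Cxcl12, at 74.9, 110, 129 and 257 CPM (1.08 ± 0.37 SE). Pdgfb, which recruits pericytes, was at 165, 175, 246 and 360 CPM (0.86 ± 0.24 SE). Dll4 differed little in size (0.40 ± 0.18 SE) although its groups did not overlap. Angpt2, an antagonist ligand of Tek released by activated endothelium, was at 37.3, 113, 84.8 and 1134 CPM, so its groups overlapped and the high level was that of Cre+ replicate 4 alone. Trp53i11, Kcne3, Lxn, Nid2, Unc5b and Pgf had overlapping groups as well.

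Esm1 UMIs were unevenly spread over cells in every mouse, and the 3 cells with the most held 42.4%, 31.8%, 40.4% and 31.2% of them. With the mixed cells left out it was at 151, 333, 643 and 1679 CPM. Among called barcodes of replicate 4, its level was 1631 CPM. Without Cre+ replicate 4 the log2 fold changes of Cxcr4, Pdgfb and Dll4 were 0.46, 0.52 and 0.30, and none of these passed. Without Cre+ replicate 2, with a lone Cre+ library in turn, Cxcr4 was at 1.53 (adjusted p = 3.60e-06, edgeR) and Pdgfb at 1.14 (adjusted p = 9.23e-04), and both passed.

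No venous gene passed with all 4 mice, and 7 of 10 had overlapping groups. Both Cre+ values lay below both Cre- values for 3 of 10 genes (30% beside 17.6%), and the median log2 fold change was -0.64. Aplnr, the apelin receptor of venous endothelium, was at 568, 459, 359 and 111 CPM (log2 fold change -1.10 ± 0.46 SE, adjusted p = 1.00, edgeR). Lrg1, a secreted glycoprotein of inflamed venules, was at 767, 611, 586 and 160 CPM (-0.87 ± 0.51 SE), though 19.0% to 39.5% of thinned epithelial barcodes held it too. Sele, a selectin of activated venules, was at 65.1, 27.7, 23.1 and 0 CPM. In all 3 the lowest value was that of Cre+ replicate 4, and without the mixed cells Lrg1 was at 780, 608, 649 and 160 CPM, with overlapping groups, which leaves 2 of 10 genes apart beside 16.8% of all genes. Under the study's limits, 4 of 10 were apart beside 18.3%, Icam1 among them. Without Cre+ replicate 4 the log2 fold changes of Aplnr and Lrg1 were -0.53 and -0.25. Without Cre+ replicate 2 they were -2.15 (adjusted p = 1.24e-10, edgeR) and -2.05 (adjusted p = 8.31e-11), and both passed, with a lone Cre+ library. Selp, the selectin stored in endothelial granules, was at 314, 120, 214 and 14.5 CPM, with overlapping groups. Vwf, the clotting factor kept in the same granules, went against the list at 305, 236, 238 and 617 CPM. Nr2f2, the transcription factor that sets venous identity, was at 160, 91.8, 122 and 65.9 CPM, and Ephb4, the venous ephrin receptor, at 115, 82.0, 83.2 and 60.3 CPM. Icam1, Vcam1 and Ackr1 also had overlapping groups, with Ackr1 at 28.5, 8.79, 33.8 and 0 CPM.

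**Figure D4:**
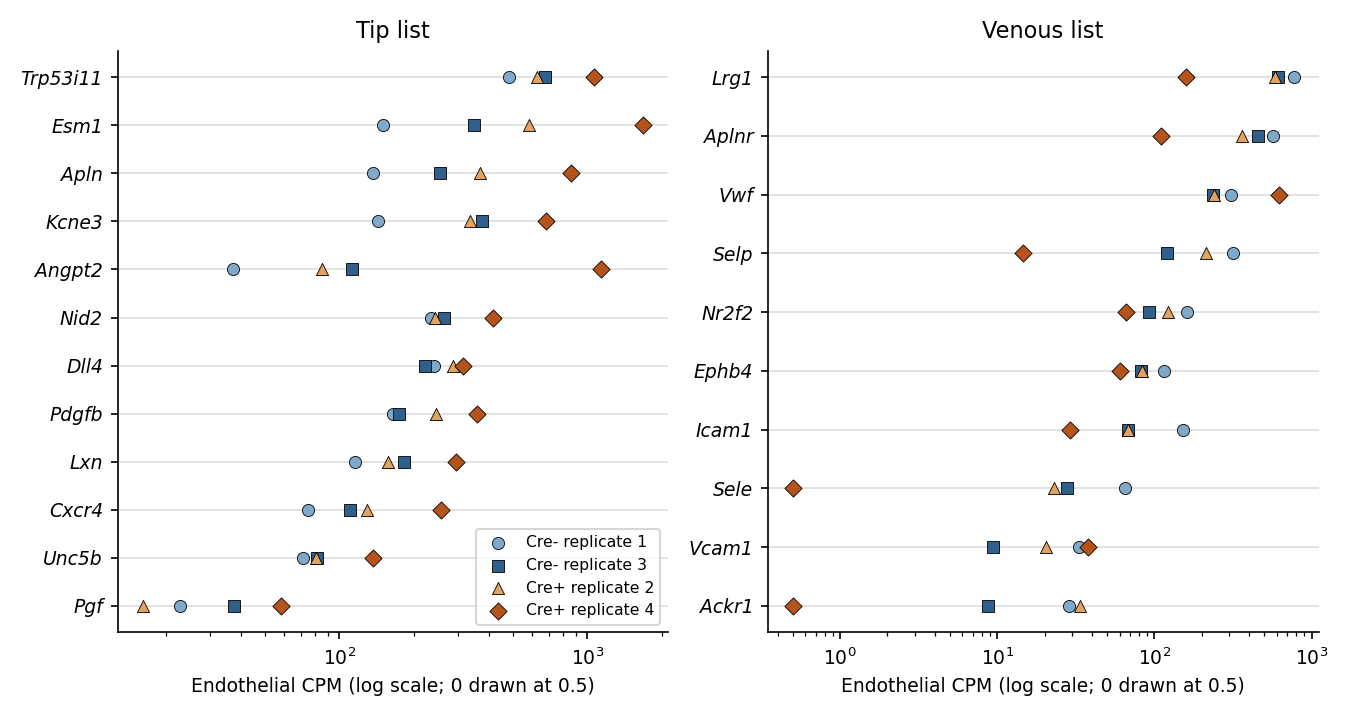
Level of each tip gene (left) and venous gene (right) in the summed endothelial cells of each library, in CPM on a log scale with values of 0 drawn at 0.5. Cre+ replicate 4 is the rightmost point for all 12 tip genes and the leftmost for 8 of 10 venous genes, the exceptions being Vwf and Vcam1.

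Apelin ligand and receptor thus lay at opposite ends of the same mice: Cre+ replicate 4 had the most Apln and the least Aplnr, and Cre- replicate 1 the least Apln and the most Aplnr. Over 4 libraries this is a description with no test.

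Capillary genes did not move together. Aqp1, a water channel, was nearly level at 1668, 1812, 1754 and 1809 CPM, and Rgcc, a gene of capillary endothelium, at 436, 537, 575 and 488 CPM. Gpihbp1 was at 1024, 1762, 1675 and 4177 CPM (log2 fold change 1.10 ± 0.45 SE, adjusted p = 1.00, edgeR), with Cre+ replicate 2 inside the Cre- range and a log2 fold change of 0.24 without Cre+ replicate 4. Without Cre+ replicate 2 it was 1.64 and passed (adjusted p = 1.67e-15, edgeR), again with a lone Cre+ library. Fabp4, a fatty acid carrier, was at 876, 1272, 352 and 2818 CPM, so the 2 Cre+ mice were the lowest and the highest. In Cre- replicate 3, 53.7% of its Fabp4 UMIs came from 3 cells. Cd36, a fatty acid receptor, was at 127, 111, 51.0 and 141 CPM, and Cd300lg and Btnl9 ranged from 223 to 358 and from 92.7 to 110 CPM. Car4, Aqp7 and Timp4 were at 0 in at least 1 library and at most 14.5 CPM. Both Cre+ values lay outside the Cre- range on the same side for 0 of the 9 capillary genes tested. Without the mixed cells, Gpihbp1, Aqp1 and Cd300lg were higher in both Cre+ mice, or 3 of 9 genes beside 15.6% of all genes, and among called barcodes of replicate 4 its Cd36 level was 44.9 CPM.

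Arterial genes were of modest level. Efnb2, the arterial ephrin ligand, was at 196, 211, 243 and 235 CPM, and Sox17 at 147, 102.2, 105 and 116 CPM. Hey1, a Notch target, was at 46.1, 64.8, 53.7 and 65.9 CPM, and Gja4, a connexin of arterial endothelium, at 73.2, 77.5, 128 and 71.5 CPM. These groups overlapped except for Efnb2. In Cre+ replicate 4, 84.4% of the 64 Gja4 UMIs came from 3 cells, and its level among called barcodes was 4.34 CPM. Gja5, the connexin of larger arteries, was at 22.7, 15.0, 9.66 and 2.23 CPM, and Stmn2 at 67.1, 62.5, 56.4 and 4.47 CPM, lower in both Cre+ mice. Bmx and Sema3g stayed between 2.23 and 30.5 CPM, and the fibroblast genes Fbln5 and Cxcl12 of the list at 74.9 to 111 and 83.7 to 187 CPM. Against fibroblasts, 6 of 8 arterial genes tested were higher and 2 lower. Of 9 venous genes 5 were higher and 1 lower (Vcam1, an adhesion molecule that fibroblasts also carry), and 12 of 12 tip genes and 7 of 7 capillary genes were higher. Over all genes tested, 24.2% were higher and 30.3% lower. The rule favors endothelial genes here as for the pan-endothelial list, so these counts do not identify vessel types. Among the tip genes, Pgf was no longer called under the study's limits on cells (log2 fold change 0.20, adjusted p = 0.776, edgeR) or without the replicate block (adjusted p = 0.208), nor Angpt2 without Cre- replicate 3 (adjusted p = 0.0633).

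Lymphatic markers came from a handful of cells. Ccl21a, the chemokine of lymphatic vessels, was at 391, 3.58, 340 and 0 CPM, and its 1154, 11, 633 and 0 UMIs lay in 2, 1, 2 and 0 cells. This gene has near-identical copies and was read from 1 of 2 rows of that symbol, so its level is uncertain. Lyve1, a hyaluronan receptor, was at 39.0, 5.53, 50.5 and 1.12 CPM, in 2, 3, 4 and 1 cells. Mmrn1, a matrix protein of lymphatic endothelium, was at 32.2, 7.16, 54.2 and 11.2 CPM in 4, 5, 5 and 3 cells. Prox1 UMIs were found in 10, 7, 2 and 2 cells, and 2, 1, 2 and 1 cells held both Prox1 and Mmrn1. Prox1 was present after thinning in 1.14% to 1.67% of endothelial cells beside 0.364% to 0.624% of epithelial barcodes, so single UMIs of it are near background. Pdpn was at 2.71, 3.91, 38.1 and 0 CPM, and at 2.86, 4.17, 12.5 and 0 CPM without the mixed cells, and fibroblasts held 184 to 279 CPM. Reln stayed at or under 8.81 CPM.

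Flt4 and Nts of the lymphatic list behaved differently. Flt4, the receptor for Vegfc, was at 116, 142, 162 and 182 CPM and was found in 114, 116, 92 and 46 endothelial cells, far more than held Prox1, and its groups did not overlap (18.2%, 24.4%, 26.0% and 30% of cells after thinning, beside at most 0.266% of fibroblasts and 0.120% of epithelial barcodes). Flt4 is also carried by sprouting blood vessels. Nts, a neuropeptide, was at 109, 45.9, 31.7 and 10.1 CPM in 14, 11, 3 and 3 cells. The groups of Ccl21a, Lyve1 and Mmrn1 overlapped, with the high values in Cre- replicate 1 and Cre+ replicate 2. Of 7 lymphatic genes tested between genotypes 0 passed. Whether this number of cells could show a genotype difference was not tested.

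Other lists gave the following between genotypes. Of 15 cell cycle genes, 7 were lower in both Cre+ mice (46.7% beside 17.6%) and 0 higher, but the summed list overlapped at 464, 732, 366 and 494 CPM. In Cre+ replicate 4, 3 cells held 96.8% of the UMIs of Ube2c and 97.0% of those of Birc5, mitotic genes named after their values were seen. Pcna, the replication clamp, was at 101, 128, 73.6 and 68.2 CPM and Tyms, which makes thymidylate, at 72.5, 92.8, 59.1 and 53.6 CPM. Cdk1, the mitotic kinase, overlapped at 35.9, 64.1, 25.2 and 77.1 CPM. Of 12 immediate early genes 5 were lower in both Cre+ mice (41.7%), among them Jun at 1436, 1099, 1084 and 854 CPM and Junb at 1219, 886, 848 and 634 CPM.

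MHC class II genes were higher in both Cre+ mice for 3 of 4 tested (75% beside 14.8%). Cd74, the invariant chain, was at 26.8, 39.7, 45.1 and 173 CPM, H2-Ab1 at 27.4, 27.3, 27.9 and 60.3 CPM and H2-Aa at 12.2, 17.3, 26.3 and 71.5 CPM. Macrophage markers moved with them, at 70.1, 97.3, 105 and 209 CPM in sum, with all 7 genes detected in each library, and their part in the MHC class II levels was not tested. Of 13 interferon genes 3 were higher in both Cre+ mice and 0 lower. Isg15, a ubiquitin-like interferon target, was at 104, 100, 122 and 451 CPM and Rsad2, an antiviral enzyme, at 45.4, 19.5, 12.3 and 495 CPM. In Cre+ replicate 4, 3 of the 75 cells held 88.5% of the Rsad2 UMIs and 50.7% of the Isg15 UMIs. MHC class I genes overlapped throughout, with B2m at 1944, 1309, 1661 and 3258 CPM.

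Of 7 mural genes tested 4 were lower in both Cre+ mice (57.1% beside 17.6%) and 1 higher, and the members with 2 or more mural genes lay in the Cre- libraries. Of 9 Notch genes 3 were higher (33.3% beside 14.8%) and 2 lower. For the other lists, 3 of 13 basement membrane genes were higher and 1 lower in both Cre+ mice, 3 of 12 VEGF and angiopoietin genes higher and 2 lower, and 3 of 12 BMP and TGF-beta genes higher and 0 lower. Of 12 leukocyte traffic genes 0 were higher and 2 lower, of 8 flow genes 1 and 2, of 10 lipid uptake genes 2 and 1, and of 9 hypoxia genes 1 and 1. Col4a1 was at 5320, 5585, 5257 and 4790 CPM, Notch1 at 275, 241, 296 and 242 CPM and Eng at 725, 761, 774 and 712 CPM, and these levels were close between all mice. Sparc was higher in both Cre+ mice (6493, 8419, 8643 and 11463 CPM), as was Nrp1 (319, 338, 513 and 384 CPM). Of the 24 pan-endothelial genes 3 (12.5%) were higher and 2 (8.33%) lower in both Cre+ mice, below the background in each direction.

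Some genes with the smallest p-values between genotypes included genes known from pericytes and matrix. They are named because of their rank, after their values were seen. Rgs5, a pericyte gene, was at 104, 97.0, 2.68 and 0 CPM (log2 fold change -5.77 ± 0.48 SE, adjusted p = 0.0958, edgeR), and at 7.51, 16.3, 2.39 and 0 CPM without the mixed cells. Rgs5 is itself among the genes that mark mixed cells, so its fall without them is partly set by the filter and decides nothing about genotype. The 8 endothelial cells with 2 or more mural genes were all in Cre- libraries, 3 in replicate 1 and 5 in replicate 3. Fn1, fibronectin, was at 55.9, 135, 501 and 556 CPM (2.49 ± 0.40 SE, adjusted p = 0.986), and at 58.0, 118, 41.2 and 556 CPM without the mixed cells, so the groups then overlapped. DESeq2 called Fn1 (adjusted p = 1.26e-06), Rgs5 (8.35e-11) and Ccn2 (9.82e-10), along with Mt2, Ifi27l2a, Ccn3 and Scgb2b27, and edgeR without the filter on low counts called Rgs5, Ccn2 and Hbb-bs. Ccn2, a matricellular target of YAP signaling, was at 98.9, 93.4, 334 and 480 CPM (2.11 ± 0.24 SE, adjusted p = 0.384) and at 104, 91.3, 208 and 480 CPM without them, still apart but with Cre+ replicate 2 lower. With a lone Cre+ library, Rgs5, Fn1, Ccn2 and Hbb-bs each passed without Cre+ replicate 2 and without Cre+ replicate 4.

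Globin RNA was found in few cells. Hbb-bs, a beta-globin chain of red cells, was at 1.36, 0, 87.5 and 25.7 CPM in endothelial cells (log2 fold change 6.36 ± 0.90 SE, adjusted p = 0.715, edgeR) and at 0.159, 0, 26.4 and 4.28 CPM in fibroblasts, high in the same 2 libraries. Its 163 UMIs in Cre+ replicate 2 lay in 4 of 140 endothelial cells and its 23 UMIs in Cre+ replicate 4 in 11 of 75. The platelet and red cell list summed to 9.49, 4.88, 161 and 49.2 CPM in endothelial cells, with Hbb-bs the most abundant in the Cre+ mice and Pf4, a platelet chemokine, in the Cre- mice. Pf4 had 22, 15, 16 and 8 UMIs in endothelial cells, and Ppbp, another platelet gene, had 0 in all 4. Its part in other differences was not tested.

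**Figure D5:**
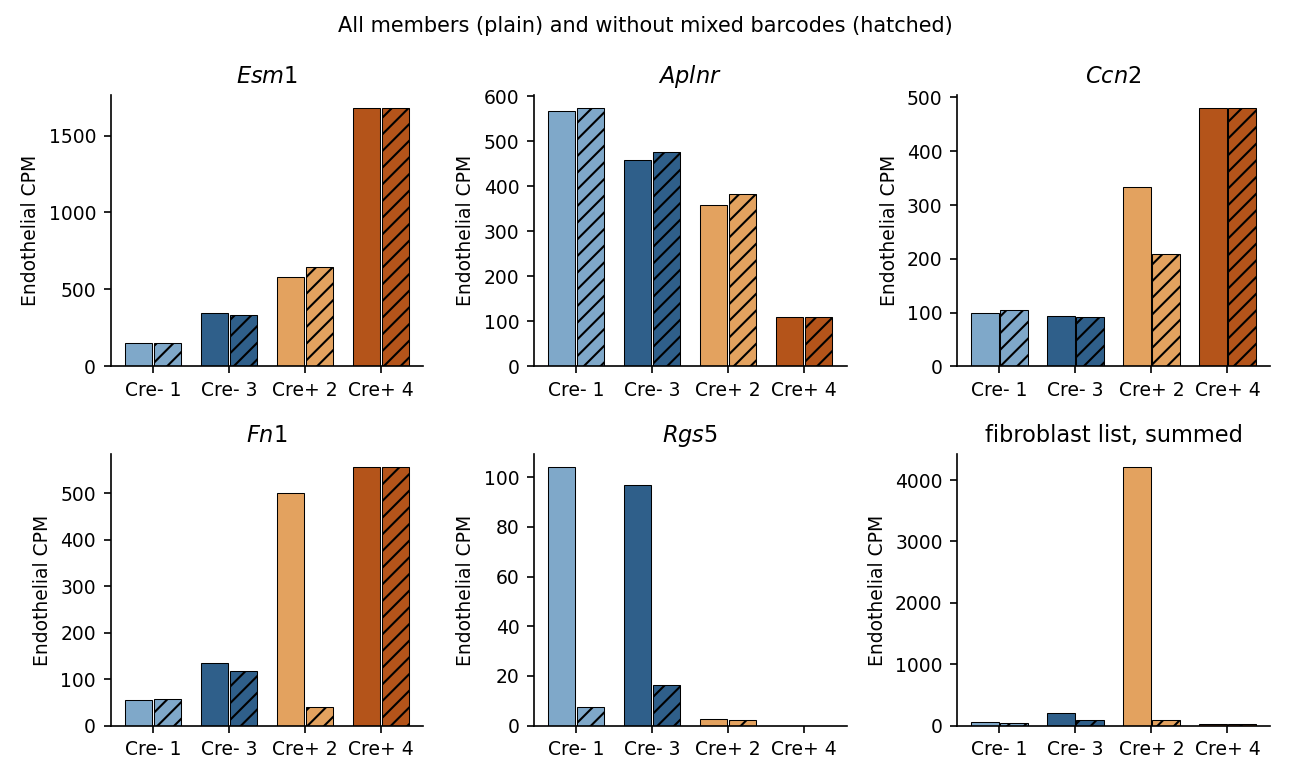
Level in the summed endothelial cells of each library, in CPM on linear axes from 0, with all members (plain bars) and without mixed barcodes (hatched bars), which pass the collagen threshold or hold 2 or more mural genes. Esm1 and Aplnr stay near their levels, whereas Fn1 in Cre+ replicate 2 goes from 501 to 41.2 CPM. Rgs5 in Cre- replicate 1 goes from 104 to 7.51 CPM and the fibroblast list in Cre+ replicate 2 from 4211 to 92.6 CPM. Rgs5 and the collagen genes of that list help define mixed barcodes, so these last falls are partly set by the filter.

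Whether the genotype difference in endothelial cells differs from that in fibroblasts of the same mice was tested as an interaction. edgeR called 0 of 12221 genes (0%), with 558 (4.57%) at an unadjusted p under 0.05, and DESeq2 called 1, Esm1, named after its value was seen. Esm1 was nearly confined to endothelial cells, with 4103 UMIs there and 37 in fibroblasts, all of the latter in Cre- mice. The fibroblast UMIs were 3 in 1 cell of replicate 1 and 34 in 2 cells of replicate 3. The fibroblast side of this call thus rests on very few cells. On simulated counts the edgeR interaction test found 4% of genes with an interaction of 1 on the log2 scale and 60% of those with 2. The spread between libraries was fixed there and not estimated from these mice. What this test could detect here is thus not known, and small differences between the classes can be missed.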

How the data were processed

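Sorted tumor cells of 4 mice were profiled by droplet single-cell RNA sequencing. Per the labels and file headers, the authors deposited counts of UMIs per gene and barcode from Cell Ranger, version 6.1.2 for replicates 1 to 3 and version 4 for replicate 4. The processing notes name a human build although the features are mouse genes, so no coordinates were taken from the counts. The members and lists were chosen with earlier results of these data known. Replicates are separate mice, so p-values measure the spread between mice with 1 library each.

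Barcodes were classed by the thresholds given in the report, and counts were summed per library and class. Sums were tested with edgeR 4.0.16 in R 4.3.3 (TMM, filterByExpr, quasi-likelihood test, Benjamini-Hochberg adjustment over all genes tested, threshold 0.05), with the mouse as a block for endothelial cells against fibroblasts. The 12 genes that class the barcodes were left out of that test. Same-mouse sums deviated together (correlations 0.198, 0.159, 0.257 and 0.141), and the pairing comes from the shared mouse. DESeq2 1.42.0 was an alternative. Shares were computed in Python 3.11.15 with numpy 2.4.6 and scipy 1.17.1 after thinning each cell to 2000 UMIs, which leaves out shallower cells. No doublet caller was run. Instead, barcodes with collagen or mural genes were dropped as an alternative. A fold is given only where both classes held more than 3 UMIs. Otherwise a bound or a pooled ratio is given.

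All vessel-list genes could be named. Of the other lists the 3 most abundant in endothelial cells could be, and against fibroblasts the 10 genes in each direction with the largest fold among called genes at 50 CPM or more. Other genes were named after their values were seen. On simulated counts the test against fibroblasts found 70% of genes changed by 1 on the log2 scale and 100% of those changed by 2. All simulations changed only genes above 50 CPM. They used a fixed spread between libraries that was not estimated from these mice, so their shares need not hold for these data.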

Additional observations from a re-analysis of the deposited data

How the results depend on the processing

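With 2 mice against 2, no share could pass its test, and 60 thinned cells of Cre+ replicate 4 limit every share there. Genotype calls, 0 by the main test, were 1 when the rule was applied to thinned barcodes, 7 with DESeq2 and 3 without the filter on low counts, and ranged from 0 to 470 with each mouse left out, the 470 without Cre+ replicate 2 and 284 without Cre+ replicate 4. The lone sample of a group is then assumed to vary like the other group. Interaction calls, 0 by the main test, were 1 with DESeq2 and 43 without the filter, and ranged from 0 to 127 with each mouse left out, the 127 without Cre+ replicate 4. The causes were not tested. Calls against fibroblasts ranged from 4822 to 6901 over the other settings and from 4716 to 6536 with a mouse left out. Without the replicate block there were 6178 calls (2749 higher, 3429 lower) in place of 6219. The setting without mural fibroblasts was chosen after seeing the data.

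The difference in lymphatic use (Cre+ minus Cre-, percentage points) turned from 0.663 to -1.004 with called cells of replicate 4, -0.841 under the study's limits on cells, -0.972 thinned to 1000 UMIs and -0.996 without thinning, and ranged from -0.240 to 1.57 with a mouse left out. The arterial difference turned to -0.630 thinned to 1000 UMIs, and the capillary difference to -4.08 without thinning, with a range of -2.43 to 11.2 when a mouse was left out. These reversals without Cre+ replicate 4 leave the capillary and lymphatic differences without a direction. The tip difference was 15.2, but 1.17 without thinning and 6.44 with at least 1 listed gene in place of 2. It was larger at 23.8 thinned to 1000 UMIs, 19.8 with the rule on thinned barcodes, 19.5 under the study's limits and 19.0 without mixed cells. In these larger cases the groups did not overlap (exact permutation p = 0.3333 each, the smallest possible here). The tip difference kept its sign with each mouse left out (6.56 to 23.8). So did venous use (-46.5 to -8.31, the smallest without Cre+ replicate 4) and the endothelial share (-2.26 to -0.821). The venous difference was -27.4 by the main setting, -14.7 thinned to 1000 UMIs and -6.39 with at least 1 listed gene.

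Against fibroblasts, 2 of 59 named genes changed sign, neither of them called by the main test. Nr2f2 was at -0.22 under the study's limits but was called as higher without mural fibroblasts (1.81, adjusted p = 5.50e-03) and without Cre+ replicate 4 (0.68, adjusted p = 0.0322), and Icam1, at 0.00 in the main test, was at -0.017 under those limits, -0.27 without mural fibroblasts, -0.089 with DESeq2 and -0.00512 without the filter, and ranged from -0.41 to 0.41 with a mouse left out (log2 fold changes), below 0 without Cre- replicate 1 or 3. Calls were lost for Pgf under the study's limits (0.20) and without the replicate block (0.99), for Angpt2 without Cre- replicate 3 (3.14) and for Lyve1 without Cre- replicate 1 (2.75, adjusted p = 0.0501). Ackr1 was called as lower under the study's limits (-1.12) and without mural fibroblasts (-1.65). The 13 named genes whose genotype fold was followed through the settings kept their sign under every setting.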

Other observations

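Hypoxia genes were split among the endothelial cells. Ldha, which makes lactate at the end of glycolysis, was at 393, 436, 330 and 555 CPM, and Pgk1, a glycolytic kinase, at 180, 226, 158 and 365 CPM, so for both the Cre+ mice were the lowest and the highest. Ndrg1, a stress-response gene induced by low oxygen, was at 217, 144, 136 and 114 CPM, lower in both Cre+ mice. Adm, a vasodilator peptide named after its values were seen, was at 30.8, 40.4, 56.4 and 257 CPM, higher in both Cre+ mice and by far the highest in replicate 4. None of these passed edgeR's adjusted threshold between genotypes, where 0 genes were called by this test, 387 had an unadjusted p under 0.05 and DESeq2 called 7.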
